A study of Mus musculus with 35 samples.

Results

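The genes described here encode the nuclear subunits of the mitochondrial respiratory chain and of ATP synthase. They were taken by name from the array's own annotation: names beginning with Nduf and a letter and number (complex I), Uqcr (complex III), Cox4 to Cox8 (complex IV) or Atp5 (ATP synthase, also called complex V). Cox7a1 and Cox8b, tissue isoforms, and names of unnamed transcripts or pseudogenes were left out. The rule took 103 of the array's 41174 gene probes, which stand for 74 gene names: 35 of complex I, 7 of complex III, 16 of complex IV and 16 of complex V. The tests covered 72 of them among 18635 genes. Cox8c was well above background on 2 of 35 arrays and Cox4i2, the lung isoform of a regulatory subunit, on 1, and neither was tested. Every tested member was well above background on all 35 arrays. The name rule also took a few genes that are not structural subunits: Atp5s (now Dmac2l), Cox4nb (now Emc8) and Cox7a2l, a factor of respiratory supercomplexes. It keeps older names such as Uqcr (now Uqcr11) and Atp5f1 (now Atp5pb), and it places Ndufa4 in complex I, although the protein is now known as a part of complex IV.

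The respiratory chain passes electrons from NADH and succinate to oxygen through complexes I to IV in the inner mitochondrial membrane. Complexes I, III and IV pump protons as they do so, and ATP synthase makes ATP from the return flow of protons through its membrane ring. Most subunits are encoded in the nucleus and a few, among them the catalytic core of complex IV, in the mitochondrial genome. In the aortic wall, smooth muscle cells also make much of their ATP by glycolysis, while the brown fat around the vessel is very rich in mitochondria.

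RNA came from the entire suprarenal aorta, 1 mouse per array, of male ApoE-/- mice, which lack apolipoprotein E and have high plasma cholesterol; all groups share this deletion. At 12 to 14 weeks of age they received an Alzet minipump with saline or with angiotensin II (Ang II, a pressor hormone) at 1000 ng/kg/min. Saline was given for 7 days (n = 6), 14 days (n = 6) or 28 days (n = 5). Ang II was given for 7 days with a non-dissected aneurysm (n = 4) or a dissected aneurysm (n = 3), for 14 days with an aneurysm (n = 5), or for 28 days with an aneurysm (n = 6). Because the labels divide the mice treated for 7 days by dissection, those 2 groups were defined by outcome, not by assignment. Each value is the log2 ratio of the aorta to a common reference RNA on the same array, so it was compared between aortas for 1 gene, never between genes. The aorta channel had between 45.0% and 84.8% of spots well above background, with a median of 57.1%. The lowest share was in saline replicate 5 at 28 days and the highest in Ang II replicate 4 at 14 days. The 3 dissected aortas had low shares of 48.7%, 50.5% and 47.2%. The shares were 50.1% to 62.2% in saline and 52.4% to 58.4% in non-dissected Ang II aortas at 7 days. The part of this difference in the results was not tested.

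After 7 days of Ang II, subunit genes of all 4 complexes were lower in non-dissected aortas than after saline. Of the 72 genes, 59 fell and 1 rose (limma, Benjamini-Hochberg adjusted p at most 0.05 over 18635 genes), and the median log2 change was -1.27. Among all genes tested, 12.7% fell, 14.5% rose and the median change was -0.0032. By complex, 33 of 35 genes fell in complex I, 7 of 7 in complex III, 10 of 14 in complex IV and 9 of 16 in ATP synthase. The median changes were -1.31, -1.52, -1.27 and -0.95. In 57 genes, every Ang II aorta lay below every saline aorta, against 8.33% of all genes. The count of lower members was 18 with median centring in place of loess and 1 with scale normalization between arrays, with median changes of -1.49 and -1.37. These 2 counts stand without the share of all genes in the same fits. Whether the loss of calls is particular to the members was not tested.

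The 4 complexes moved together from aorta to aorta. With each gene set against its mean over the saline arrays, the median level of the 72 genes was -1.45, -1.37, -0.49 and -0.92 in the 4 non-dissected aortas, and from -0.11 to 0.76 in the 6 saline aortas, so the groups did not overlap. The level in replicate 3 was the nearest to saline. Over the 35 arrays, the level of complex I followed those of complexes III, IV and V with Pearson r of 0.98, 0.98 and 0.97; the points share arrays and normalization, and the correlations are given as a description.

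**Figure D1:**
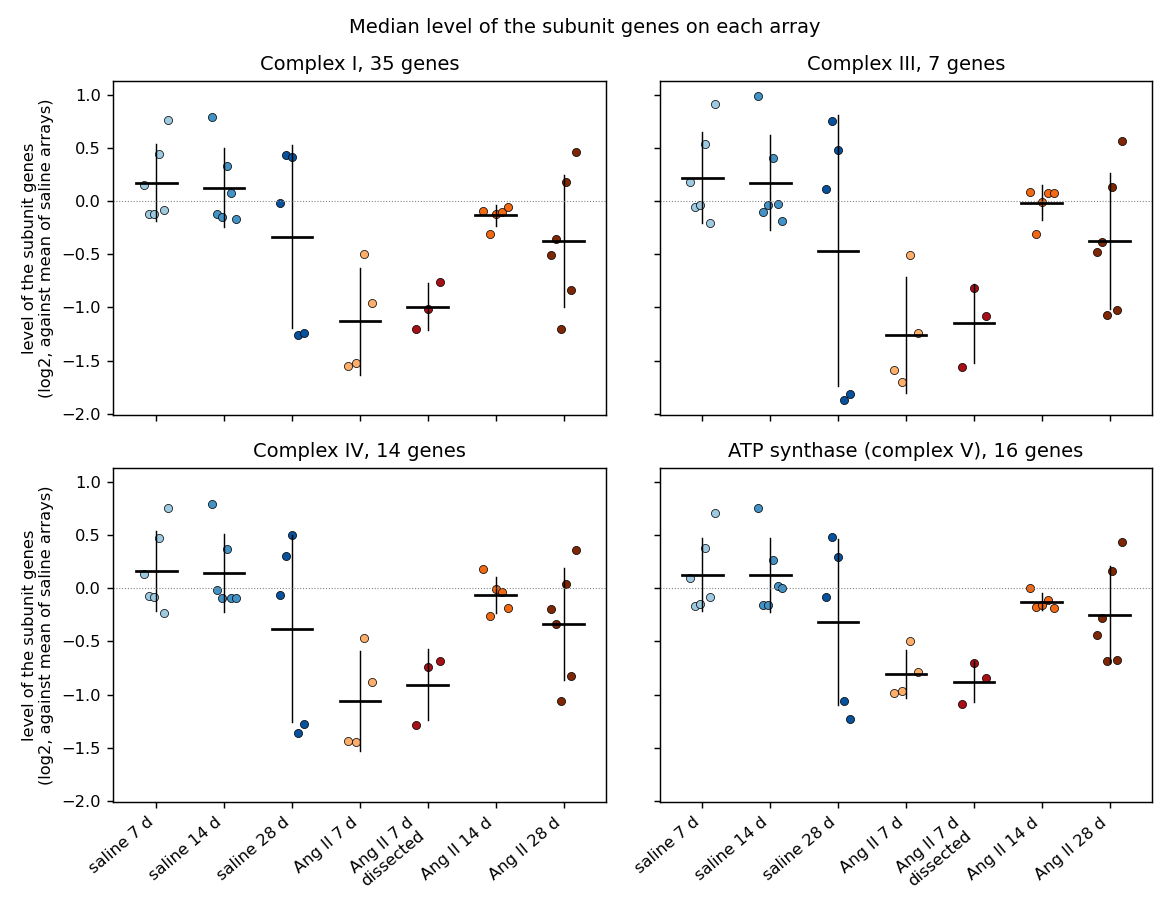
Each point is 1 array, the horizontal line the group mean and the vertical line 1 SD; the y axis is the median log2 level of the tested genes of a complex against the mean of the 17 saline arrays. In each panel the 7-day Ang II aortas, dissected or not, lie below the 7-day saline aortas, and 2 of the 5 saline aortas at 28 days lie as low as the Ang II aortas.

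Markers of some neighbouring tissues, brown and white fat and chromaffin or sympathetic cells, were also lower in the non-dissected aortas. Among all genes, 12.7% fell. No gene passed limma's test in the lists of adrenal cortex (7 genes), kidney tubule (9), hepatocytes (9), or skeletal and cardiac muscle (15). Their median changes were -0.10, -0.09, -1.10 and 0.23, and 0, 1, 3 and 0 genes had an unadjusted p under 0.05. Over the 35 arrays, the level of the 72 genes had a Pearson r of 0.72 with the brown adipocyte list, 0.58 with the white or common adipocyte list and 0.32 with the chromaffin and neuronal list, given as a description. Of 14 tested brown adipocyte genes, 7 fell and 0 rose after 7 days of Ang II without dissection, with a median change of -1.31, and all 14 were well above background on at least 20 arrays. Their median level against saline was -2.33, -1.06, 0.45 and -0.37 in the 4 non-dissected aortas and -0.30 to 0.84 in the saline aortas. Ucp1, the uncoupling protein that defines brown fat, was well above background on every array of every group and changed by -0.90 (SE 0.48, limma adjusted p = 0.164). Of 17 chromaffin and neuronal genes 12 fell, with a median of -2.19, and of 18 white or common adipocyte genes 6 fell, with a median of -0.56. With the mean of each of these 3 lists on each array as covariates, 1 member was called lower and the median change was -0.43. Under the same fit, 1.01% of all genes were called lower. The brown adipocyte list holds 2 complex IV isoforms, Cox7a1 and Cox8b, which the name rule left out. Part of this fit, and of the r of 0.72, thus sets respiratory chain genes against one another. Markers of macrophages rose, 14 of 15, as did 11 of 13 fibroblast genes; contractile smooth muscle had 0 lower and 1 higher of 13. In bulk tissue, fewer cells of a type and less RNA per cell cannot be told apart, and the part of each of these tissues in the result was not tested beyond this fit. Within the first scan day, which held 3 of the 4 Ang II aortas, 53 members were lower with a median of -1.28. That count stands without the share of all genes in the same fit. Within the second day, which held 1 Ang II aorta, the median was -0.84.

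**Figure D2:**
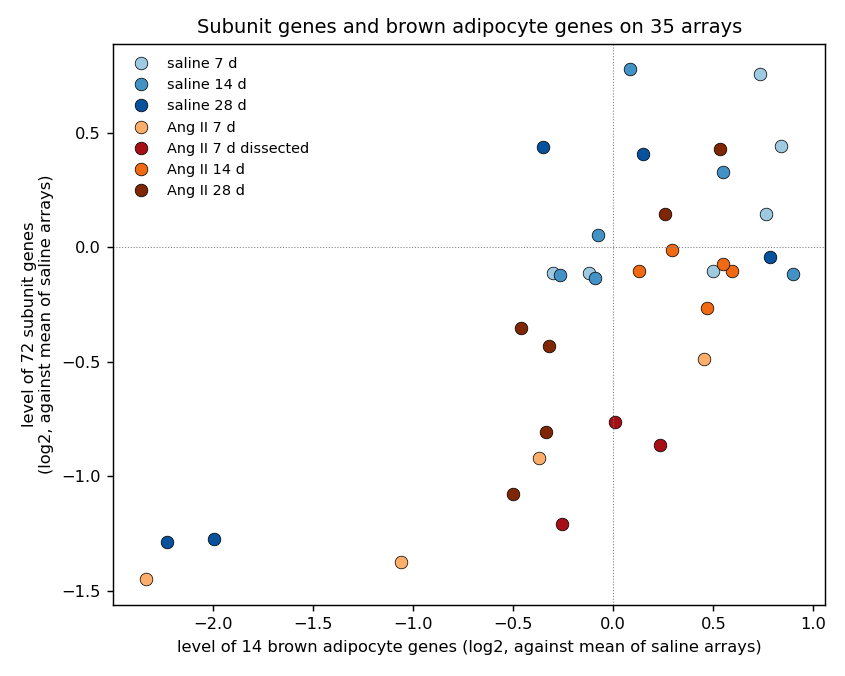
Each point is 1 of 35 arrays; the x axis is the median log2 level of 14 brown adipocyte genes and the y axis that of the 72 subunit genes, both against the mean of the saline arrays. The 2 saline aortas at 28 days with low subunit genes also have low brown adipocyte genes, at -1.99 and -2.23, whereas the 3 dissected aortas have low subunit genes with brown adipocyte levels from -0.26 to 0.23.

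Complex I, the NADH dehydrogenase, has a core of catalytic subunits and a larger number of supernumerary ones. All 7 core genes of nuclear origin fell, and so did 26 of 28 supernumerary genes, by a median of -1.27. Ndufb8, a supernumerary subunit of the membrane arm, had log2 ratios of 1.66 to 2.84 with a median of 1.95 after saline for 7 days and of -0.59, -0.32, 1.27 and 0.31 after Ang II. The groups did not overlap, and the change was -1.96 (SE 0.46, limma adjusted p = 0.00233), a 3.9-fold lower level. A second Ndufb8 probe, also well above background on all 35 arrays, stood at -0.65 and did not pass (adjusted p = 0.088). Ndufv2, a core subunit that binds an iron-sulfur cluster, had ratios of -0.70, -0.65, 0.56 and -0.49 after Ang II and 1.25 to 2.14, with a median of 1.46, after saline. Its change of -1.89 (SE 0.36, limma adjusted p = 0.000379) was the largest among the core genes. Ndufa10, a supernumerary subunit of the membrane arm, changed by -1.94 (SE 0.45, limma adjusted p = 0.00211). The core genes Ndufs1, Ndufs8 and Ndufv1 changed by -1.80, -1.62 and -1.48. The 2 genes of the complex that did not pass were Ndufa3 at -0.66 and Ndufa2 at -0.40 (adjusted p = 0.079 and 0.291).

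Complex III, the cytochrome bc1 complex, hands electrons from ubiquinol to cytochrome c. Uqcrfs1, its iron-sulfur subunit and 1 of its catalytic parts, fell the most of all 72 members. It had ratios of 2.03 to 3.11, with a median of 2.45, in the saline aortas and of -0.57, -0.59, 1.34 and -0.06 in the non-dissected Ang II aortas. Every Ang II aorta lay below every saline aorta, and the change was -2.46 (SE 0.50, limma adjusted p = 0.000624), a 5.49-fold lower level. The core protein genes Uqcrc1 and Uqcrc2 changed by -1.52 and -1.81. Of the small subunits, Uqcrb, which contributes to the ubiquinone site, changed by -1.74, Uqcrq by -1.42, Uqcr by -1.26 and Uqcrh, the hinge protein next to cytochrome c1, by -1.08. Uqcrh passed the test although its Ang II and saline ranges overlapped.

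Complex IV, cytochrome c oxidase, has nuclear subunits that come in isoforms, and the isoforms did not move alike. Cox5a, a subunit with 1 form, had ratios of -0.54, -0.19, 1.40 and 0.66 after Ang II and of 1.76 to 2.78, with a median of 2.04, after saline. Its change was -1.84 (SE 0.42, limma adjusted p = 0.00193). Cox6c and Cox7b, also without a tested isoform, changed by -1.55 and -1.49, and Cox5b and Cox7c both by -1.27. The ubiquitous isoforms fell: Cox6a1 by -1.47, Cox8a by -1.34, Cox6b1 by -1.34, Cox7a2 by -1.26 and Cox4i1 by -1.13. Cox4i1 lost its call without saline replicate 4 or 6 or without Ang II replicate 1, 2 or 4, with adjusted p of 0.0531 to 0.137. Cox6b1 lost it without Ang II replicate 1 or 2 (adjusted p = 0.0718 and 0.0614), and Cox7b without Ang II replicate 1 (adjusted p = 0.0642). Cox6b2, the isoform known from testis, was the only member that rose. Its ratios were 1.56, 2.09, 1.83 and 1.95 after Ang II and 0.54 to 1.49, with a median of 1.07, after saline. The ranges were apart, and the change was 0.80 (SE 0.21, limma adjusted p = 0.00646), a 1.74-fold higher level. Cox6b2 did not pass with median centring in place of loess, at 0.60 (adjusted p = 0.052), nor within the first or the second scan day, at 0.87 and 0.71 (adjusted p = 0.0629 and 0.363).

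Cox6a2, the isoform of heart and skeletal muscle, changed by 0.28 (SE 1.03, limma adjusted p = 0.883). Its spread came from single arrays: replicate 4 of saline at 7 days stood at -0.72 and replicate 2 of Ang II at -0.48, against -3.23 to -2.55 in the other saline aortas and -2.91 to -2.79 in the other Ang II aortas. The same arrays had the highest level of 15 skeletal and cardiac muscle genes in their groups, 2.07 and 2.16 against saline, where the group medians were -0.51 and -0.41. Cox7a2l and Cox4nb, taken by name, changed by -0.27 and -0.10 and did not pass.

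In ATP synthase, the parts of the enzyme differed in how many genes fell. The catalytic head turns ADP into ATP, the peripheral stalk holds it in place, and the ring of c subunits turns in the membrane. In the head, Atp5a1 and Atp5b, the alpha and beta subunits that form the catalytic sites, changed by -1.63 and -1.57, and Atp5c1, the gamma subunit of the central shaft, by -1.31. Atp5d and Atp5e, the small delta and epsilon subunits of the shaft, stood at -0.76 and -0.49 and did not pass. Atp5b had ratios of -0.48, -0.32, 0.54 and 0.00 after Ang II and 1.11 to 2.17, with a median of 1.40, after saline, so the groups did not overlap (SE of the change 0.31, limma adjusted p = 0.000429). In the stalk, Atp5f1, Atp5o and Atp5h changed by -1.34, -1.11 and -1.09, while Atp5j stood at -0.43 (adjusted p = 0.0657). Of the small membrane subunits, Atp5j2 changed by -1.34 and Atp5k by -1.08, and Atp5l stood at -0.74.

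The ring is encoded by 3 genes, Atp5g1, Atp5g2 and Atp5g3, which make the same mature c subunit behind different import signals. None of them passed limma's test at 7 days, with or without dissection. Among all genes, 12.7% fell without dissection and 17.6% with it. At an unadjusted p under 0.05 the counts were 0 without and 1 with dissection, against 39.4% and 45.2% of all genes. The 1 was Atp5g2, higher by 0.45 in dissected aortas. Counts out of 3 genes are not read as particular to the ring. Atp5g2 had ratios of -0.64, -0.46, -0.38 and -0.04 after Ang II and -0.79 to 0.01, with a median of -0.40, after saline. These ranges overlap almost fully, and the change was 0.01 (SE 0.20, limma adjusted p = 0.971). Atp5g1 stood at 0.36 (SE 0.22) and Atp5g3 at -0.41 (SE 0.21). The difference between the ring genes and the head genes was not tested. Atp5g2 stood between -0.18 and 0.10 under the other normalizations, so it has no settled sign. With the mean of the 3 saline groups as the control, Atp5g3 passed the test at -0.51.

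**Figure D3:**
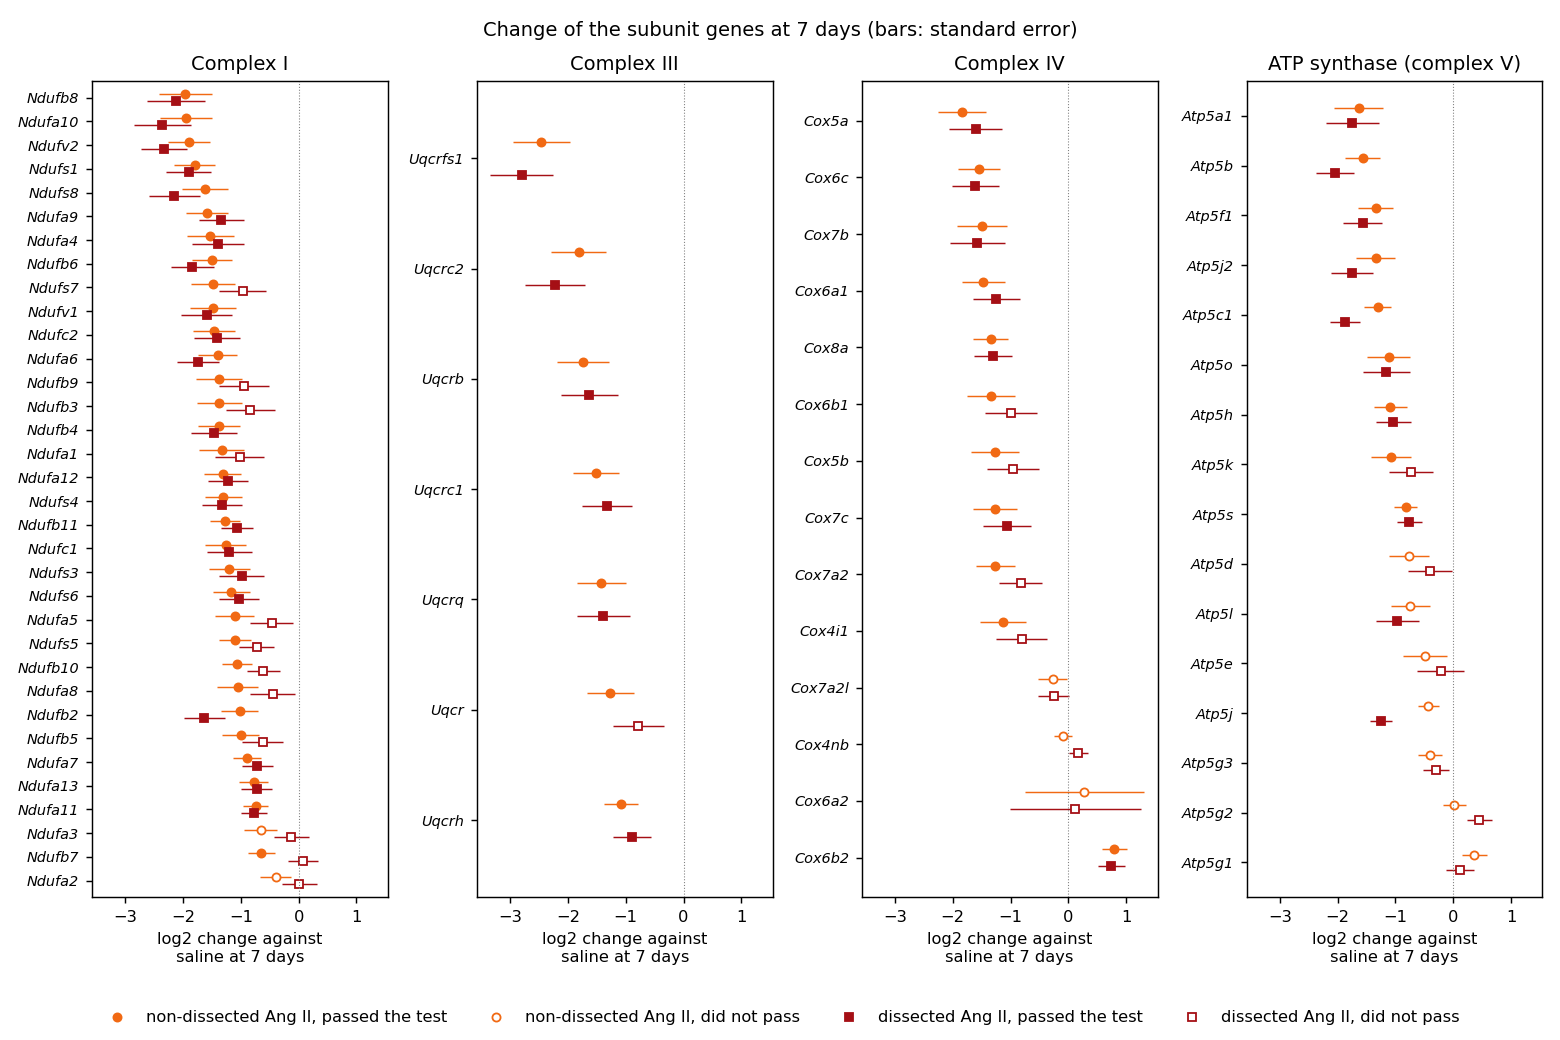
Points give the log2 change of the members, 1 of complex I left out, against saline at 7 days and bars its SE, circles for the 4 non-dissected and squares for the 3 dissected aortas, filled where the gene passed the test. Nearly all points of complexes I and III lie left of 0, while Cox6b2 lies at 0.80 and 0.74 and the 3 ring genes between -0.41 and 0.45.

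The dissected aortas had low subunit genes as well. Against the same 6 saline aortas, 45 of 72 genes fell and 1 rose (43 and 2 with the replicate numbers as a block), with a median change of -1.05, where 17.6% of all genes fell and 18.9% rose. In 45 members every dissected aorta lay below every saline aorta, against 16.3% of all genes. By complex, 23 of 35 genes fell in complex I, 6 of 7 in complex III, 6 of 14 in complex IV and 10 of 16 in ATP synthase. The median level of the 72 genes was -1.21, -0.87 and -0.76 in the 3 aortas. Both 7-day comparisons share their saline aortas, so they are set side by side only.

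Named members again stood apart from saline. Uqcrfs1 had ratios of -0.81, -0.17 and 0.05 and changed by -2.80 (SE 0.55, limma adjusted p = 0.000161). Ndufv2 had -0.98, -0.61 and -0.68 and changed by -2.33 (SE 0.40, limma adjusted p = 3.45e-05). Atp5b had -0.94, -0.51 and -0.18 and changed by -2.04 (SE 0.33, limma adjusted p = 1.86e-05). Each of these sets of 3 lies below the lowest saline aorta. Cox5a had 0.27, 0.67 and 0.78 and changed by -1.61 (SE 0.46, limma adjusted p = 0.0066). Cox6b2 had 1.93, 2.07 and 1.41 and rose by 0.74 (SE 0.23, limma adjusted p = 0.0125), with 1 aorta inside the saline range; without dissected replicate 1 or 2 its adjusted p was 0.0634 and 0.0844, within the second scan day 0.0589, with scale normalization between arrays 0.06 and with median centring 0.64. Of the other complex IV isoforms, Cox6a1 at -1.25 and Cox8a at -1.30 fell, while Cox4i1 at -0.81, Cox6b1 at -0.99 and Cox7a2 at -0.83 did not pass.

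Of the brown adipocyte genes, 2 of 14 were lower and 0 higher in these aortas, against 17.6% and 18.9% of all genes, with a median change of -0.34 and single genes from -2.69 to 0.45. Ucp1 changed by 0.08 (SE 0.53, limma adjusted p = 0.926). None of the 17 chromaffin and neuronal genes passed limma's test in either direction, nor had any an unadjusted p under 0.05, and 5 of 18 white or common adipocyte genes fell. With the same 3 lists as covariates, 37 members were called lower and the median was -0.71. Macrophage genes were higher in 15 of 15, and contractile smooth muscle genes were lower in 2 of 13; their part in the result was not tested. All dissected aortas were scanned on the second day, where 46 members were lower than in the 3 saline aortas of that day. Without dissected replicate 1, 25 members were lower, and with scale normalization between arrays 2 were, with a median of -1.22. The counts of 37, 46, 25 and 2 stand without the share of all genes in the same fits. They are not read as particular to the members. The difference between the covariate fits of dissected and non-dissected aortas was not tested.

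Between dissected and non-dissected aortas of the same 7 days, 1 of 72 members passed the test, where 4.97% of all genes were lower and 3.07% higher, and the median change was 0.08. The dissected aortas were all scanned on the second day and 3 of the 4 non-dissected ones on the first. Within the second day the median was -0.46, with median centring in place of loess -0.32 and with the 3 tissue lists as covariates -0.22, so it has no settled sign. The member was Atp5j, coupling factor 6 in the stalk of ATP synthase. Its ratios were -0.17, -0.81 and 0.14 in the dissected aortas and 0.42, 0.62, 0.60 and 0.49 in the non-dissected ones. The ranges were apart, and the difference was -0.81 (SE 0.21, limma adjusted p = 0.0136), but without dissected replicate 2, within the second scan day or with scale normalization no member passed (adjusted p of Atp5j 0.154, 0.247 and 0.824). Group ranges were also apart, lower in dissected aortas, in Atp5c1, Ndufb2 and Ndufs8, and higher in Ndufb7; 15.1% and 11.9% of all genes were apart in these directions. A member that missed the test is not shown to be equal: Uqcrfs1 differed by -0.34 with an SE of 0.59.

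**Figure D4:**
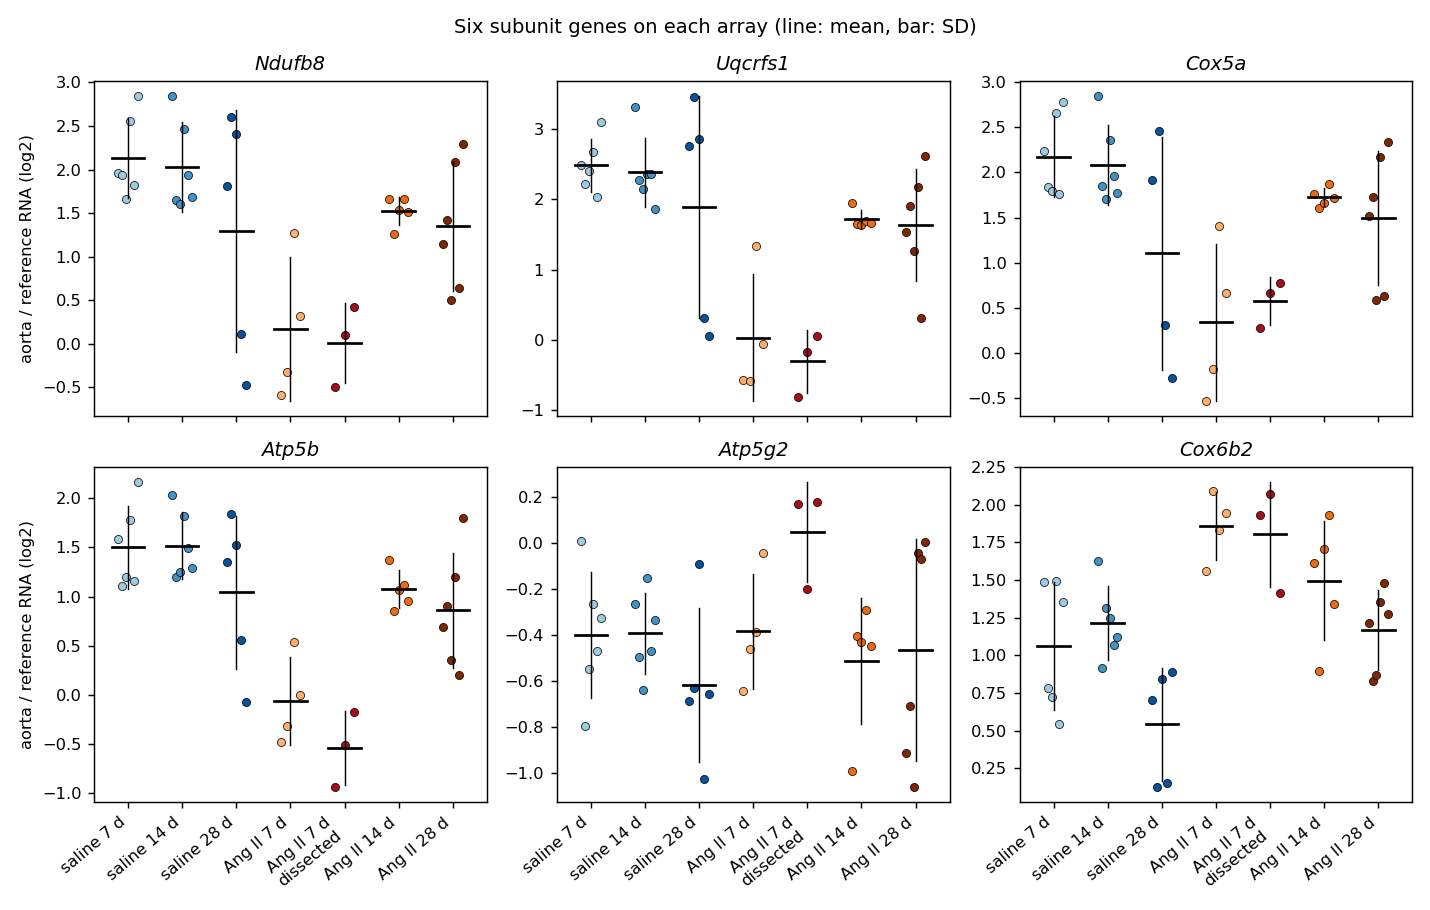
Each point is 1 array and gives the log2 ratio of aorta to reference; the horizontal line is the group mean and the vertical line 1 SD. Ndufb8, Uqcrfs1, Cox5a and Atp5b are low in both 7-day Ang II groups and in 2 saline aortas at 28 days, Atp5g2 is not, and Cox6b2 is high in both 7-day Ang II groups.

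After 14 days of Ang II, no member passed limma's test in either direction, where 1.28% of all genes were lower and 1.13% higher. The median change was -0.24, with 64 of 72 values negative, where 49.7% of all genes were negative. An unadjusted p under 0.05 was found for 5 members, Atp5c1, Atp5j, Atp5s, Ndufb11 and Ndufv2, and for 18.4% of all genes. Uqcrfs1 had ratios of 1.95, 1.65, 1.64, 1.69 and 1.67 after Ang II and 1.86 to 3.31, with a median of 2.32, after saline. The 5 Ang II aortas lay close together, and 1 of them lay inside the saline range; the change was -0.67 (SE 0.47, limma adjusted p = 0.453). In Atp5j all 5 Ang II aortas, at 0.45, 0.63, 0.41, 0.48 and 0.79, lay below the 6 saline aortas, at 0.89 to 1.39 with a median of 1.02. Its change was -0.51 (SE 0.16, limma adjusted p = 0.0841). Ndufs1 was the other of the 2 members with ranges apart, against 1.82% of all genes. Brown adipocyte genes stood at 0.13 to 0.60 in these aortas, with 0 of 14 called.

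After 28 days, again no member passed, where 0.059% of all genes were lower and 0.843% higher. The median change was 0.02, and 1 member, Cox6b2 at 0.63 (SE 0.20, limma adjusted p = 0.123), had an unadjusted p under 0.05, as did 15.2% of all genes. In none were the group ranges apart, against 0.317% of all genes lower and 1.04% higher. The aortas of both groups spread widely. The median level of the 72 genes was -0.04, 0.44, 0.41, -1.27 and -1.29 in the 5 saline aortas and -1.08 to 0.43, with a median of -0.39, in the 6 Ang II aortas. Saline replicates 4 and 5 thus lay at the level of the non-dissected aortas after 7 days of Ang II, and they had the lowest brown adipocyte levels of all saline aortas, -1.99 and -2.23. In Uqcrfs1 these 5 saline aortas stood at 2.76, 3.46, 2.86, 0.31 and 0.06. Within the first scan day the median change over the members was -1.10, with 0 called, and within the second it was 0.82, with 3 members higher, so the 28-day value has no settled sign.

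The Ang II effect itself was compared between times. The effect at 28 days was less negative than at 7 days in 70 of 72 members, with a median difference of 1.24 on the log2 scale, where 53.3% of all genes had a positive difference. With scale normalization between arrays that median was -0.26, so its sign is not settled. The test of that difference passed for 2 members, Cox5a at 2.24 (SE 0.59, limma adjusted p = 0.0366) and Ndufb11, a supernumerary subunit of complex I, at 1.26 (SE 0.35, limma adjusted p = 0.0443). Among all genes 0.66% had such a positive difference and 1.97% a negative one, and 61 members had an unadjusted p under 0.05, as did 19.5% of all genes. Neither member passed with Agilent's processed signals, scale normalization, the authors' series table, no filter on dim probes or the replicate numbers as a block. Cox5a had no usable spot on saline replicate 2 at 28 days, so its saline mean there rests on 4 arrays. Leaving out single arrays gave 0 to 24 members called, the most without saline replicate 2 or 3 at 28 days. At 14 days against 7 days, the median difference was 1.02, with 67 of 72 positive against 46.1% of all genes. An unadjusted p under 0.05 was found for 44 members and 20.4% of all genes, but no member passed limma's test, where 0.247% of all genes had a positive and 0.789% a negative difference. For the other members a smaller effect at later times was not shown.

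Within saline, no member passed the test across 7, 14 and 28 days, where 0.606% of all genes did. From 7 to 28 days the median change was -0.51, with 70 of 72 values negative against 59.5% of all genes. With scale normalization that median was 1.15 and 4 members passed the test across times, so the sign is not settled. By limma, 3 members, Cox5a, Cox6b2 and Ndufb11, had an unadjusted p under 0.05, as did 12.7% of all genes. Cox6b2 stood at 0.70, 0.13, 0.84, 0.15 and 0.89 in the 5 saline aortas at 28 days, and its lowest values were not in replicates 4 and 5 together.

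Other genes of mitochondrial metabolism were read as lists, chosen by function with earlier results of these data known. Beside the counts of these lists, 12.7% of all genes fell and 14.5% rose without dissection. With dissection, 17.6% of all genes fell and 18.9% rose. Of 4 genes of complex II, which feeds electrons from succinate, 4 fell in the non-dissected aortas and 3 in the dissected ones, with Sdhb, its iron-sulfur subunit, at -2.32 (SE 0.52, limma adjusted p = 0.00162) and -2.96 (SE 0.57, adjusted p = 0.000138). Cyc1, the cytochrome c1 of complex III that the name rule misses, changed by -1.71 and -1.87, and Cycs, cytochrome c itself, by -2.44 and -2.76. Of 14 citric acid cycle genes 14 and 13 fell, with medians of -1.85 and -1.87. Idh3a, a subunit of the isocitrate dehydrogenase of the cycle, was the lowest at -2.93 and -3.49. Of 16 fatty acid oxidation genes 15 and 10 fell, Acadm, the medium-chain dehydrogenase, by -2.30 at 7 days without dissection. The list overlaps the brown adipocyte markers in 1 gene.

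The probes for the mitochondrial genome covered 3 tested subunits, and all fell. ND4L of complex I changed by -2.35 without and -3.85 with dissection, CYTB of complex III by -2.09 and -3.13, and COX2 of complex IV by -1.90 and -2.42. The machinery that builds and supplies the complexes had smaller median changes: 21 of 35 assembly factors fell in non-dissected aortas, with a median of -0.66, and 40 of 78 mitochondrial ribosomal proteins fell and 1 rose, with a median of -0.59. Of 14 carriers and pores 8 fell, Mpc1 of the pyruvate carrier by -2.41. Of 21 import genes 13 fell and 1 rose, where 12.7% of all genes fell and 14.5% rose. The differences in size between lists were not tested.

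Of 25 glycolysis and lactate genes, 13 fell and 2 rose in non-dissected aortas, against 12.7% and 14.5% of all genes. The median change was -0.79. In dissected aortas 10 fell and 1 rose, against 17.6% and 18.9% of all genes, with a median of -0.65. Ldhb, the lactate dehydrogenase subunit common in oxidative tissue, changed by -2.39. Slc16a3, a lactate exporter, rose by 1.59 (SE 0.28, limma adjusted p = 0.00014) and by 2.62 (SE 0.31, limma adjusted p = 1.55e-07).

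The regulators of these genes were mixed: 8 of 19 fell and 1 rose without dissection, and 4 fell and 1 rose with it. Among all genes, 12.7% fell and 14.5% rose without dissection, and 17.6% fell and 18.9% rose with it. The regulators that fell with dissection were thus near the share of all genes. Ppargc1b and Ppara, a coactivator and a receptor that drive oxidative genes, changed by -1.70 and -1.69 without dissection. Ppargc1a, the best known coactivator of mitochondrial biogenesis, stood at -1.01 (SE 0.69, limma adjusted p = 0.282). Gabpa, the DNA-binding subunit of the ETS factor NRF2, changed by -0.74 without and -1.47 with dissection. Pprc1, a coactivator of the same family that responds to growth signals, rose by 1.08 and 1.64. Nrf1 at 0.11 and Tfam, which packs and transcribes the mitochondrial genome, at 0.53 did not pass (limma adjusted p = 0.469 and 0.0603). At 14 and 28 days, no gene passed limma's test in the lists of complex II, the citric acid cycle or fatty acid oxidation. Nor did any assembly factor, mitochondrial ribosomal protein or glycolysis gene. Of these 172 genes, 12 and 4 had an unadjusted p under 0.05, against 18.4% and 15.2% of all genes. Elsewhere, 1 of 19 regulators was lower at 14 days, against 1.28% of all genes. Of 14 carriers and pores, 1 was higher at each time, against 1.13% and 0.843% of all genes. The 3 mitochondrial genome subunits had medians of -1.26 and -0.63, with 0 called. Of these, 3 and 1 had an unadjusted p under 0.05.

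**Figure D5:**
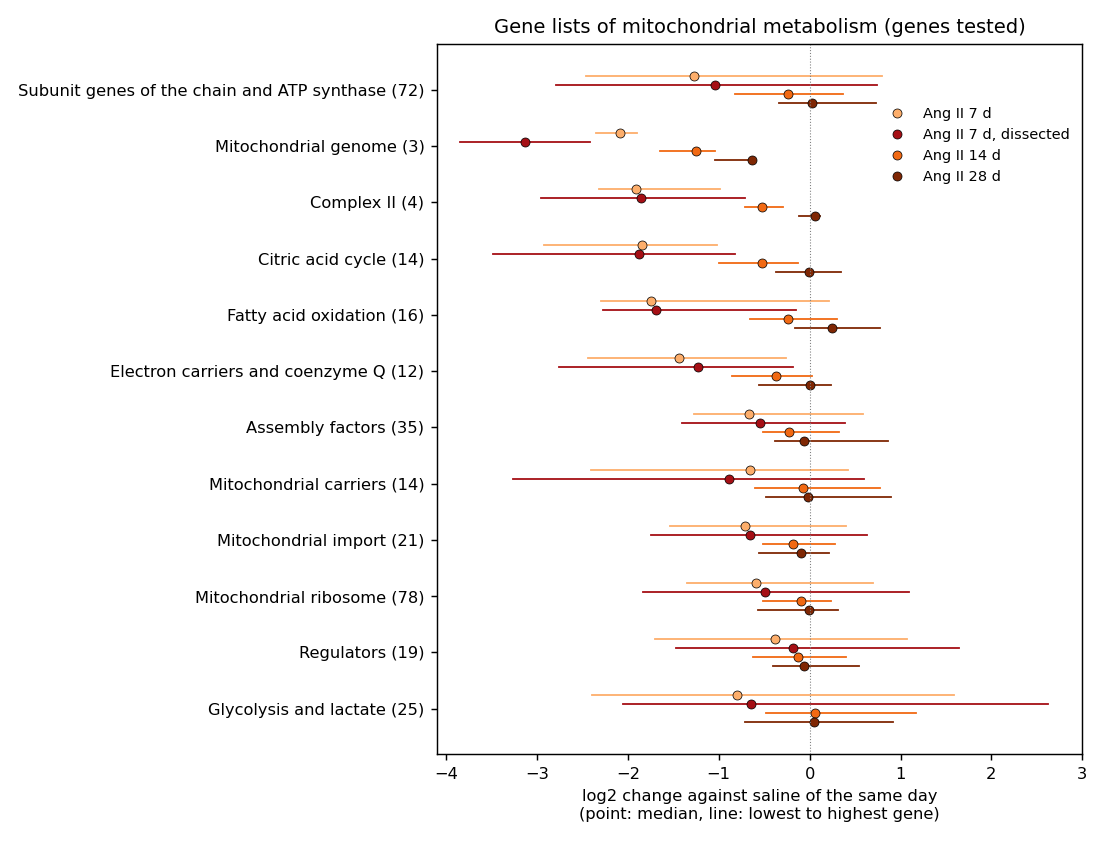
Points are the median log2 change of the tested genes of each list against saline of the same day and lines run from the lowest to the highest gene; the number of genes is in brackets. At 7 days, with and without dissection, every list median is below 0, with the citric acid cycle at -1.85 and -1.87, and at 28 days the medians of most lists lie near 0.

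Among the isoforms left out by the name rule, Cox7a1, the isoform of muscle and brown fat, fell by 2.17 on the log2 scale without dissection (SE 0.63, limma adjusted p = 0.012) and stood at -1.36 with it (SE 0.69, adjusted p = 0.125). Cox8b, an isoform of the same tissues, stood at -0.35 and 0.45 and did not pass. Both also stand on the brown adipocyte list.

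Further probes of 22 members allowed a check within the array. Of 27 such probes, 20 gave the same call as the brightest probe at 7 days, and all 18 that carry a RefSeq mRNA accession did. The other 7 did not pass. Of these, the probes of Ndufb8 and Ndufa11 were well above background on all 35 arrays and stood at -0.65 and -0.44, against -1.96 and -0.75 for the brightest probes, and that of Ndufb2, on 32 arrays, at -0.29 against -1.02. That of Ndufc1, on 16 arrays, stood at -0.31 against -1.26. The second probes of Atp5f1, Uqcrq and Atp5j2, well above background on 23, 23 and 31 arrays, stood at -0.04, -0.05 and 0.12. Their brightest probes stood at -1.34, -1.42 and -1.34.

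The promoters of the members were searched for short motifs of factors known to bind nuclear genes of the respiratory chain. RefSeq promoters of build GRCm38.p6 run from 250 bases before to 50 after a start site. They were found for 60 of the 72 tested members and for 12221 tested genes. Of 65 promoter entries of the members, 48 had a start that matched the start of the gene in RefSeq. The NRF1 core GCGCANGCG, on either strand, was in 18 members (30.0%), against 13.0% of tested genes with a promoter and 7.03% of all 27025. The ETS core CCGGAAG was in 14 (23.3% against 17.0% and 9.93%), the YY1 core AAGATGGC in 10 (16.7% against 4.52% and 3.19%), and the ERR element TCAAGGTCA in 1 (1.67% against 0.311% and 0.47%). Members with and without the NRF1 core had median changes of -1.10 and -1.31 after 7 days of Ang II, those with and without the ETS core -1.14 and -1.27, and those with and without the YY1 core -1.32 and -1.26. These are counts of letters, with no test, and a match is not a bound site.

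A few promoters are printed because they set members with different changes side by side: Cox6a1 and Atp5g2 both hold the NRF1 core, but Cox6a1 fell by 1.47 on the log2 scale and Atp5g2 stood at 0.01, while Uqcrfs1, with the largest fall, holds none of the 4 motifs in this stretch. Atp5g3, at -0.41, has the ERR element, and also an NRF1 match in the 50 bases after its start, which are not printed. Each line gives the 250 bases before the start used by the promoter entry, 5′ to 3′, with motif matches in capitals. In Cox6a1 the capitals are 2 overlapping NRF1 matches, a further NRF1 match and an ETS match, in Atp5g2 2 overlapping NRF1 matches and in Atp5g3 the reverse complement of the ERR element.
Cox6a1, chr5:115348959-115349208, minus strand: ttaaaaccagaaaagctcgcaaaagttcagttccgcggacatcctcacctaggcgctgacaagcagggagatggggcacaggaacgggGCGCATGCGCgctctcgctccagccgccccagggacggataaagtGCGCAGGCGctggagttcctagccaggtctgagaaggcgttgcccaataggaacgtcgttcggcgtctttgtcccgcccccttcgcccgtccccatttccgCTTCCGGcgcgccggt
Atp5g2, chr15:102671048-102671297, minus strand: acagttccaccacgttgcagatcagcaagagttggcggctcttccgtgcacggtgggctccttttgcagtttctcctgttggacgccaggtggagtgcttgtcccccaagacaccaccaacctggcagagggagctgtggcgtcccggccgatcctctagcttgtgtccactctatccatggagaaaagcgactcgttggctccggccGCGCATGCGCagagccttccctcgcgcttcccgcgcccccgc
Atp5g3, chr2:73911327-73911576, minus strand: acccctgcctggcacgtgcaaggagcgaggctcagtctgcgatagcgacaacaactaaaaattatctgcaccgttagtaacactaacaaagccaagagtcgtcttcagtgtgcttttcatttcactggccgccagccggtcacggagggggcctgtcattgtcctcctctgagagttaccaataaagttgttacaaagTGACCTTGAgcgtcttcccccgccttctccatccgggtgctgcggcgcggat
Uqcrfs1, chr13:30545317-30545566, minus strand: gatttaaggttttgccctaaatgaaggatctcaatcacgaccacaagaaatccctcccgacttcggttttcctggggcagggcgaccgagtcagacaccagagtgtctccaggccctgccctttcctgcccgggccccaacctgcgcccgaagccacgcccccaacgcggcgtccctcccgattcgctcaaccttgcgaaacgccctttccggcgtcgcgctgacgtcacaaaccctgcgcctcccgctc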

How the data were processed

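The submitters' processing notes name Agilent Feature Extraction 9.5.3.1 as the software behind the scanner files; spot and local background intensity of either channel, as the authors deposited it, was the starting point here. Per the labels, Cy5 carried the aorta after linear amplification and Cy3 a universal mouse reference labelled by reverse transcription, with no dye swap. The deposited log10 ratio of Cy5 over Cy3 and the authors' log2 series table, whose columns had medians of -0.067 to 0.109 and followed it with slopes of 3.32 to 3.34, served as checks.

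Intensities were background-corrected (normexp, offset 50), loess-normalized and fitted with limma 3.58.1 (R 4.3.3): 7 group means over 35 arrays, 28 residual degrees of freedom, Benjamini-Hochberg adjustment. A probe had to be well above background on 3 arrays, and the brightest probe stood for a gene; 1639 control spots and flagged spots were left out. Promoters were read with Python 3.11.15. Each aorta was on 1 array, and p-values measure only the spread between those aortas.

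The members, lists and rules were chosen with earlier results of these data known. Named members were the 3 largest falls and the highest change of each complex, the isoform families and any member called higher, later or by dissection. The replicate numbers of the titles were checked by correlating the deviations of arrays from their group means. Same-numbered arrays correlated at 0.13 to 0.50 between dissected and saline aortas, and differently numbered ones at -0.58 to 0.43. At 14 days the ranges were 0.04 to 0.59 and -0.49 to 0.32. In the other comparisons same-numbered arrays correlated at -0.40 to 0.33 and differently numbered ones at -0.46 to 0.60. The 2 ranges overlap in every comparison. On simulated data for the 7-day comparison (18635 genes), the fit recovered 69% of genes changed by 1 on the log2 scale. It recovered 92% of genes changed by 2, and it called 7 unchanged genes. The simulated noise was independent between genes, and 100 genes were changed at each size. In the aortas the members moved together and more genes were called, so these shares are not the power of this study. The values of 1 member of complex I are not reported here. The alternatives are in the closing section.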

Additional observations from a re-analysis of the deposited data

Results flagged for a closer look

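The outer arrays of small groups were set against the rest of their group by Dixon's test. It was run 186 times, for the median levels and the 26 named members within each group of 4 to 6 arrays. An outlying array was found 13 times, where chance would give about 9.3 if the runs were independent. They share arrays and genes that move together, so that figure is a rough guide only.

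Replicate 2 of Ang II at 14 days was low in complex I, with a median level of -0.31 against -0.12 to -0.05 in the other 4 aortas, and in complex III, with -0.31 against -0.0061 to 0.0863. In the same group, replicate 1 was high in Uqcrfs1 (1.95 against 1.64 to 1.69) and low in Atp5g2 (-0.99 against -0.45 to -0.29), and replicate 5 was low in Cox6b1 (1.02 against 1.40 to 1.54). Replicate 1 of saline at 14 days was high in Uqcrfs1 (3.31 against 1.86 to 2.36), Atp5f1 (1.76 against 0.57 to 0.99), Atp5j (1.39 against 0.89 to 1.08) and Atp5g1 (0.37 against -1.19 to -0.70).

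Among the non-dissected aortas at 7 days, replicate 3 was high in Cox8a (0.82 against -0.12 to 0.014) and Ndufv2 (0.56 against -0.70 to -0.49). Cox6a2, the muscle isoform, was high in replicate 4 of saline at 7 days (-0.72 against -3.23 to -2.55) and in replicate 2 of Ang II at 7 days (-0.48 against -2.91 to -2.79), the arrays that also had the highest skeletal and cardiac muscle levels of their groups.

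The Ang II effect differed between 28 and 7 days in 2 members by the test of the difference: Cox5a, by 2.24 on the log2 scale, and Ndufb11, by 1.26.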

How the results depend on the processing

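The count of 59 lower members after 7 days of Ang II without dissection was 18 with median centring in place of loess, 1 with scale normalization between arrays, 1 with the 3 neighbouring tissue lists as covariates and 0 within the second scan day, which held 1 Ang II aorta. The median stayed negative under all of these (-1.49, -1.37, -0.43 and -0.84), and without single arrays the count was 41 to 59. The 45 of dissected aortas became 2 with scale normalization, with a median of -1.22, and 25 to 46 without single arrays. The single call between dissected and non-dissected aortas became 0 with scale normalization, 2 with array weights, 0 within the second scan day, and 0 to 1 without single arrays. At 14 days the count of 0 became 1 with Agilent's processed signals, 1 with the authors' series table, 1 with every probe tested by itself and 2 with the mean of the 3 saline groups as control, and stayed 0 without any single array. At 28 days it became 5 with scale normalization (median -1.68) and stayed 0 without any single array. Scale normalization also gave 4 members across saline times and turned the medians there to 1.15 and of the 28-minus-7-day difference to -0.26. The 2 members of that difference became 0 with processed signals, scale normalization, the series table, no filter on dim probes, the replicate block, or without the 2 arrays at the ends of the range of spots above background, and 0 to 24 without single arrays. The replicate block gave 58, 0, 0, 43 and 1 lower members in the 5 comparisons, and 2 higher members in place of 1 in dissected aortas against saline. The cause of these changes was not tested. Apart from the covariate fit, the counts under the alternatives stand without the share of all genes in the same fits. They are not read as particular to the members. The alternatives with pooled saline, without the 2 arrays and without the 3 names that are not subunits were chosen after seeing the data. Of 26 named members, 16 of 19 called at 7 days without dissection kept the call whichever array was left out (not Cox4i1, Cox6b1 and Cox7b), as did 12 of 17 with dissection (not Cox6a1, Cox6b2, Cox7b, Uqcrb and Uqcrh). With 3 to 6 aortas a group, the number of arrays limits precision.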
